A study of Mus musculus with 34 samples.

Results

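The 11 PBS-treated Pkd2-KO kidneys of this study did not carry equal amounts of proximal tubule transcript. Ordered by Slc34a1, the sodium-phosphate cotransporter of the proximal tubule brush border, they spanned a 4.61-fold range. Members were chosen by treatment and genotype labels alone, which gave 11 kidneys of the 34 in the series, and the order came from Slc34a1 in CPM, counts per 1000000 reads in genes. Slc34a1 therefore carries no test below, and every other gene was asked whether its level rose or fell along that order. Neither kidney weight nor cyst index accompanies these libraries here, so the order is a transcript order and its relation to cyst burden was not tested.

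Pkd2-KO mice (Pkhd1/cre;Pkd2 F/F, labelled Pdk2KO, C57BL6 background) lose Pkd2, which encodes polycystin-2, in the cells where the Pkhd1 promoter drives Cre, chiefly collecting duct. They form cysts within weeks of birth. The animals used here received PBS subcutaneously at postnatal days 10, 11, 12 and 19, and kidneys were taken at day 28. The other groups of day 28 kidneys were used only to look at slopes in samples outside the order: 11 Pkd2-KO kidneys treated on the same days with 20 mg per kg of RGLS4326, an oligonucleotide inhibitor of miR-17, and 12 kidneys of UNT mice, which are untreated and non-transgenic. The genotype label Pdk2KO is read as Pkd2-KO, the name in the treatment notes. Pdk2, a pyruvate dehydrogenase kinase, is another gene and had a slope of 0.25 ± 0.08 along the order described below (edgeR adjusted p = 0.0727). Poly(A) RNA of kidney was sequenced. Replicate numbers below are those of the labels.

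The proximal tubule reclaims most of the filtered glucose, amino acids, phosphate and protein. Its cells depend on mitochondrial oxidation of fatty acids rather than on glycolysis, and they make glucose. HNF4A is a transcription factor well known for holding the program of a mature proximal tubule cell. Injured tubules lose transporters and switch on secreted proteins such as lipocalin-2 and clusterin together with simple-epithelium keratins. In whole-kidney RNA, fewer cells of a type and less RNA per cell cannot be told apart.

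In order of Slc34a1, replicate 4 had 265.8 CPM, replicate 3 had 323.6, replicate 2 had 346.0, replicate 11 had 483.8, replicate 9 had 571.5 and replicate 6, the median kidney, had 708.0. The upper end held replicate 10 at 796.7, replicate 1 at 929.9, replicate 8 at 938.0, replicate 5 at 1041 and replicate 7 at 1224. The mean was 693.5 ± 320.7 CPM (SD, n = 11). The values were spread along the range rather than gathered at its ends.

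RefSeq promoters (GRCm38.p6, 250 bases before to 50 after the start) are shown for Slc34a1, which sets the order, and for 2 of the genes described below, Hnf4a and Pck1, called genes that hold the letters GTTAAT, the more frequent of the strings searched, on one strand or the other. Both were chosen after their values were seen. Of 88 genes selected by the naming rule that had a listed promoter, 9 held these letters, and Umod, Spp1, Pkhd1 and Havcr1, which were not called along the order, are among them. Capitals mark those letters, and all 3 run on the plus strand: chr13:55399398-55399697, chr2:163546905-163547204 and chr2:173152823-173153122.
Slc34a1: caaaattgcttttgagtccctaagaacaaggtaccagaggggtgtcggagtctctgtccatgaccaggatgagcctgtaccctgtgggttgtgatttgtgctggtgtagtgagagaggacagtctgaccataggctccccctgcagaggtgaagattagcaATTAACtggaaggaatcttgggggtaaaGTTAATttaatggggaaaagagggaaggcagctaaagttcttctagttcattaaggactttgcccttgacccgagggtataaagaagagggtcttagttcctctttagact
Hnf4a: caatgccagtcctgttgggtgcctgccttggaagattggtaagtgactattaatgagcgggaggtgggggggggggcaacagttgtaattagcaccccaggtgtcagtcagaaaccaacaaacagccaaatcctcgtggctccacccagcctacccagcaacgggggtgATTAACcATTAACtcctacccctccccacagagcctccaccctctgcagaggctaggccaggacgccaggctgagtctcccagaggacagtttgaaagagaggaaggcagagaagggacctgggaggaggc
Pck1: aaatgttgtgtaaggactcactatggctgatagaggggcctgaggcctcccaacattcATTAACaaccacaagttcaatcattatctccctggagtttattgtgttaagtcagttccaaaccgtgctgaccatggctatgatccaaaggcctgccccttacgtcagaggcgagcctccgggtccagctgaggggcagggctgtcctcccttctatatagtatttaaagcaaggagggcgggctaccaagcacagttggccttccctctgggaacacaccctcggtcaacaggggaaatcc

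The Slc34a1 window held the letters at 2 positions, with first bases 89 and 61 bases before the start. Hnf4a held 2 neighbouring copies in the second of its 2 listed promoters, and Pck1 held 1. Across all genes tested that had a listed promoter, 688 of 11600 (5.93%) held GTTAAT on either strand, against 81 of 520 (15.6%) of the genes that rose with Slc34a1 and 8 of 242 (3.31%) of those that fell. The HNF4-type letters CAAAGTCCA were held by 15 of 520 rising genes (2.88%), 5 of 242 falling genes (2.07%) and 60 of 11600 in all (0.517%). A second HNF4-type string, CAAAGGTCA, was rarer, at 5 of 520, 1 of 242 and 53 of 11600. The 3 strings do not contain one another. None was found in the windows of the 11 genes with a listed promoter among the 16 genes leading the order in either direction. A match of letters is a description and does not show binding.

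The 11 libraries held between 24226637 and 48891459 reads in genes, with 17272 to 17964 genes detected. Umod, Slc12a1, Aqp2 and Podxl, which mark the thick ascending limb, the collecting duct and the podocyte, were detected in these kidneys, with median levels of 3074, 532.7, 643.2 and 226.9 CPM. Pkd2 itself had a median of 175.9 CPM (range 103.2 to 230.7) in these kidneys and 240.6 CPM (198.9 to 272.0) in the 12 UNT kidneys. Its counts cover the whole gene and cells without Cre, so they do not check the deletion. Pkd2 had a slope of 0.21 ± 0.10 along the order (edgeR adjusted p = 0.231). No pair of libraries held identical values.

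3 libraries stood apart. Replicates 2 and 11 carried transcripts of the adrenal cortex: Star, which moves cholesterol into mitochondria for steroid synthesis, was at 321.6 and 473.4 CPM there and at 2.52 to 16.6 CPM in the other 9. Hsd3b1, Cyp21a1, Cyp11b1 and Cyp11a1 were high in the same pair, which both lie in the lower part of the Slc34a1 order. Replicate 1, in the upper part, held these 4 at 3.76 to 9.74 CPM, above the 0 to 1.78 CPM of the other 8 kidneys, and Star at 16.6 CPM, above their 2.52 to 6.35 CPM. It stayed in every count given without replicates 2 and 11. In replicate 9 short transcripts were high and long ones low. The median log2 deviation was 0.31 for the shortest quartile of transcripts and −0.46 for the longest, a difference of −0.77 where the other 10 kidneys lay between −0.12 and 0.32. Counts of called genes are given with and without these libraries where they change.

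**Figure D1:**
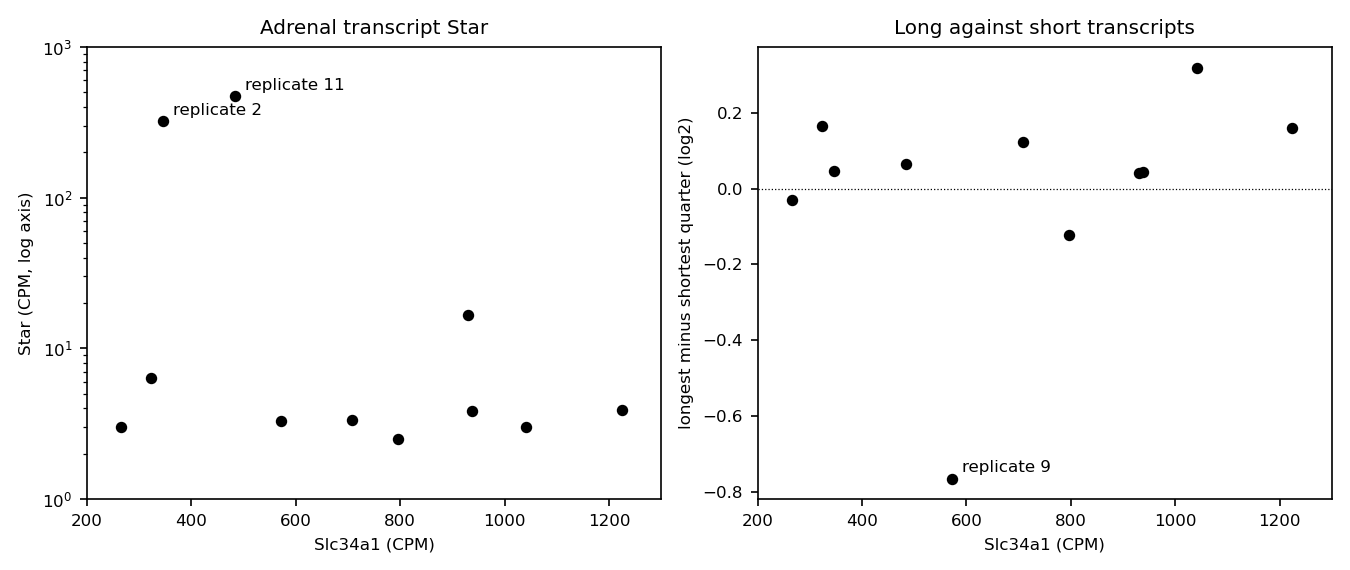
Left, Star in CPM (log axis) against Slc34a1 in CPM, 1 point per PBS-treated kidney, with replicates 2 and 11 at 321.6 and 473.4 CPM and the other 9 between 2.52 and 16.6. Right, median log2 deviation of the longest quartile of transcripts minus that of the shortest, where replicate 9 lies at −0.77 and the rest between −0.12 and 0.32.

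Of 15691 genes tested with edgeR's quasi-likelihood test against log2 Slc34a1, 1032 (6.58%) passed an adjusted p of 0.05. 693 rose with Slc34a1 (4.42%) and 339 fell (2.16%), and 3455 (22.0%) had an unadjusted p under 0.05. Slopes are log2 changes per doubling of Slc34a1, given with their standard errors. The median slope was 0.56 among genes that rose and −0.32 among genes that fell, beside a median near 0 over all genes, so rising genes moved in steeper steps than falling ones. Exact permutation of Spearman's rho over the 11 kidneys called 488 rising genes (3.11%) and 255 falling genes (1.63%), with 4076 (26.0%) at an unadjusted p under 0.05. 568 genes passed both tests after adjustment. Below, rose and fell refer to the edgeR call, and the Spearman count of a list stands beside it where the counts differ. All but 3 of the 1032 kept the sign of their slope in every fit that left out 1 kidney. The counts themselves depended on single kidneys. Without replicate 9 the fit called 1087 rising and 734 falling genes, among them all 1032 of the full fit. Without replicates 2 and 11 it called 364 and 75, and without all 3 it called 618 and 235. Leaving out replicate 7, at the top of the order, left 428 and 89.

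The first principal component of the 11 libraries held 35.6% of the variance and followed the order (Pearson r = 0.77, permutation p = 0.00735, Spearman rho = 0.79, exact p = 0.00549, and r = 0.765 without the 2 kidneys farthest from the median). Within the numbering blocks described below r was 0.92, 0.99 and 0.88. The second and the third held 23.8% and 12.5% and did not pass (permutation p = 0.166 and 0.885). For the second, r was 0.92, 0.90 and 0.21 within the blocks. Among 7 technical measures, the share of reads in the 10 most abundant genes came closest to the order, with r = 0.70 (permutation p = 0.0143, adjusted 0.0998) and rho = 0.70 (exact p = 0.0204, adjusted 0.142). It ranged from 4.81% to 6.99%, and r was 0.59 without the 2 farthest kidneys and 0.70, 0.97 and 0.57 within the 3 blocks into which the numbering of the deposited tables falls (3, 4 and 4 kidneys). Of 43 called genes selected by the naming rule, 42 had a slope of the same sign within all 3 blocks, and Pck1 did not. Reads in genes had r = 0.14 and the share of reads in no gene r = 0.43 (adjusted permutation p = 0.851 and 0.668). Y-linked Ddx3y was above 1 CPM in 6 kidneys that spanned the whole order and not in the other 5.

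Of the 8 rising genes selected by p-value, Gatm is on the list of proximal tubule markers and the other 7 are on no list. Ugt3a2, a UDP-glycosyltransferase (chr15:9335550-9370955), had 52.8 CPM in its lowest kidney, a median of 174.1 and 377.4 in its highest, with a slope of 1.23 ± 0.08 (edgeR adjusted p = 3.87e-06, rho = 0.98). It was lowest in replicate 4 and highest in replicate 7, the ends of the Slc34a1 order. Ak4, a mitochondrial adenylate kinase, ran from 32.3 to 212.2 CPM (1.30 ± 0.09), and Mpv17l, a peroxisomal and mitochondrial membrane protein, from 24.2 to 182.2 CPM (1.39 ± 0.10). Mpv17l had the highest rho of the 8, 0.99. Rdh16, a retinol dehydrogenase, rose by 1.07 ± 0.08 and Aldh8a1, an aldehyde dehydrogenase of tryptophan breakdown, by 0.93 ± 0.08. Slc22a13, a urate and nicotinate transporter, and Acnat1, an acyltransferase of fatty acids and amino acids, had slopes of 1.25 ± 0.10 and 0.98 ± 0.08. Slc22 and Ugt genes have near-identical relatives, and how reads were shared between them is uncertain.

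All 12 markers of the convoluted proximal tubule rose, with a median slope of 0.86 against 0.0002 over all genes tested, beside the 4.42% of genes that rose overall. Slopes ran from 0.60 for Slc4a4, the basolateral sodium-bicarbonate cotransporter, to 1.20 for Slc22a8 and Slc22a12, carriers of organic anions and urate. Gatm, the first enzyme of creatine synthesis, was between 58.7 and 73.7 CPM in the 4 kidneys at the lower end and between 164.9 and 271.6 CPM in the 6 at the upper end (1.09 ± 0.08, edgeR adjusted p = 6.36e-06). Lrp2 (megalin), the endocytic receptor of the brush border, had 233.5 CPM at its lowest, a median of 459.6 and 794.1 at its highest (0.86 ± 0.12, edgeR adjusted p = 0.000728), and its partner Cubn (cubilin) had 77.8, 139.0 and 249.3 CPM (0.77 ± 0.11). Lrp2 did not change evenly: it stayed between 233.5 and 297.8 CPM over the first 5 kidneys of the order and was at least 459.6 in the other 6. The Spearman test called 10 of the 12. The list gave 12 rising members without replicate 9, 10 without replicates 2 and 11 and 11 without all 3. Slc4a4 lost its call without replicate 7 (edgeR adjusted p = 0.059), without replicates 2 and 11 (0.0785) and in the Spearman test (exact adjusted p = 0.0503). The members share their cell with Slc34a1, so they describe that cell and are not separate evidence for the order.

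Markers of the straight proximal tubule were less uniform. 6 of 10 rose (median slope 0.55, beside 4.42% of all genes), among them Slc27a2, which activates very long-chain fatty acids (390.7 to 1400 CPM, median 785.8; 0.75 ± 0.09) and Slc6a18, a neutral amino acid transporter (154.3 to 482.1 CPM, slope 0.69 ± 0.09). Cyp7b1 (−0.16 ± 0.08) and Acsm3 (−0.27 ± 0.23) had slopes below 0 and did not pass (edgeR adjusted p = 0.285 and 0.534). Atp11a, a phospholipid flippase with the second highest mean of the list, had a slope of 0.22 ± 0.12 (edgeR adjusted p = 0.283). Slc22a30 and Slc22a7, organic ion carriers, passed at means of 1.37 and 2.37 CPM, the lowest levels of the list. By Spearman rank, 5 of the 10 passed. 7 members passed without replicate 9 and 5 without replicates 2, 9 and 11. Without replicate 7, or without replicates 2 and 11, 3 did.

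In the thick ascending limb, 4 of 8 markers rose, with a median slope of 0.36, beside 4.42% of all genes. Egf, the growth factor precursor of the distal nephron, had a steeper slope than any of the 12 convoluted tubule markers. It had 29.6 CPM in its lowest kidney, a median of 137.6 and 423.5 in its highest (1.67 ± 0.17, edgeR adjusted p = 6.11e-05, rho = 0.94). Its lowest and highest values fell in replicates 4 and 7. Slc12a1, the furosemide-sensitive cotransporter, ranged from 248.3 to 691.1 CPM (0.52 ± 0.12, edgeR adjusted p = 0.0203), and Kcnj1, its partner potassium channel, from 136.7 to 281.6 CPM (0.39 ± 0.10, edgeR adjusted p = 0.0272). Umod (uromodulin) had 2112 to 4037 CPM and a slope of 0.33 ± 0.10 that did not pass (edgeR adjusted p = 0.0606), though it passed without replicate 9 (0.0193) or without replicate 4 (0.0377). Cldn16 and Cldn19, the paracellular magnesium and calcium claudins of the same segment, had slopes of −0.04 ± 0.10 and 0.15 ± 0.11, so the segment's genes did not move as a block. Cldn10, another claudin and the remaining riser, had a slope of 0.48 ± 0.08 (edgeR adjusted p = 0.00379, rho = 0.85). The Spearman test called 2 of the 8, Egf and Cldn10, and not Slc12a1 (exact adjusted p = 0.0503) or Kcnj1 (0.0569). The list gave 5 rising members without replicate 9, 2 without replicate 7 or without replicates 2 and 11, and 5 without all 3 libraries that stood apart. Slc12a1 lost its call without replicate 4 or 7 and Kcnj1 without replicate 1, 3, 7 or 8. Exons of Egf, Umod, Cubn, Slc27a2 and Atp11a overlap genes on the other strand, as do those of Nphs1, Fn1, Krt5, Ndufs1, Hmgcs1, Pax8, Zfp367, Pkd1, Pkhd1, Alas2 and Cyp21a1, and the strand setting of the counting is not given in the sources used here, so their reads may include those of the partner. Col3a1, Spp1 and Pkm overlap other genes on their own strand, and Cldn3, Krt8, Slc22a12, Mmp7 and Dnase1 overlap another gene on one strand or the other.

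None of 6 tested markers of the distal convoluted tubule and none of 9 of collecting duct principal cells passed (median slopes 0.01 and −0.06). Aqp2, the vasopressin-regulated water channel, ranged from 191.9 to 1271 CPM, more widely than Slc34a1, but without order (−0.11 ± 0.30, edgeR adjusted p = 0.872, rho = −0.05). Scnn1b, a collecting duct marker, had a slope of −0.23 ± 0.09 (edgeR adjusted p = 0.145). It passed with the numbering block as a term (edgeR adjusted p = 0.0462) and without the third block (0.00628). Slc12a3, the thiazide-sensitive cotransporter, had a slope of 0.36 ± 0.12 (edgeR adjusted p = 0.0922). Of 9 intercalated cell markers 1 rose, beside 4.42% of all genes: Insrr, a receptor that senses alkaline pH (0.55 ± 0.14), and it lost its call when any 1 of 7 kidneys was left out, without replicates 2 and 11, without all 3 libraries that stood apart, and in the Spearman test (exact adjusted p = 0.0503). Insrr also lost its call with the numbering block as a term (edgeR adjusted p = 0.0881). None of 8 podocyte markers passed (median slope 0.11), and 1 rose without replicate 9. Podxl, a sialomucin of foot processes, had 170.4 to 266.7 CPM and Nphs1 (nephrin) 12.6 to 28.4 CPM (0.32 ± 0.09, edgeR adjusted p = 0.0536). All 10 endothelial markers had slopes above 0 (median 0.16), and Tek, the angiopoietin receptor, was the 1 of 10 that passed, beside 4.42% of all genes that rose (0.33 ± 0.09, edgeR adjusted p = 0.0441, although it lost its call when any 1 of 10 kidneys was left out). 3 of the 10 rose without replicate 9, 1 without all 3 libraries that stood apart, and none without replicates 2 and 11 (Tek, edgeR adjusted p = 0.159) or in the Spearman test (Tek, exact adjusted p = 0.0608).

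**Figure D2:**
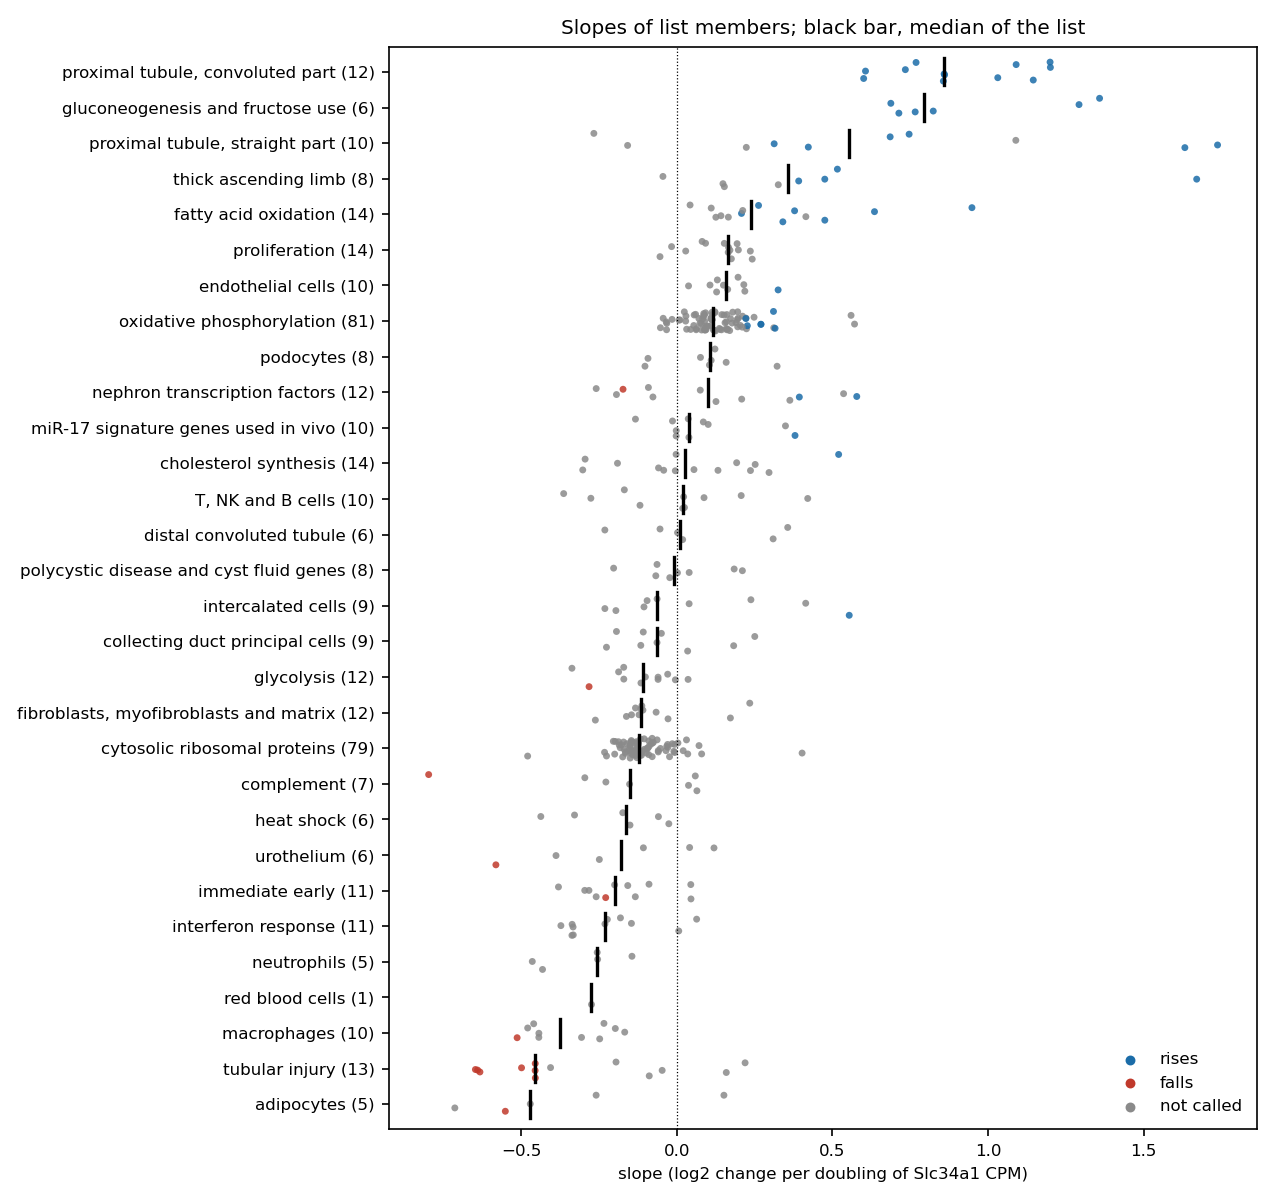
Slope of every tested member of 30 gene lists (log2 change per doubling of Slc34a1 CPM, 11 PBS-treated kidneys), 1 point per gene, with the number tested in brackets and a black bar at the list's median, where blue genes rose and red genes fell at an edgeR adjusted p under 0.05, and grey genes were not called. The convoluted proximal tubule (median 0.86) and gluconeogenesis (0.79) lie at the top and tubular injury (−0.45) and adipocyte genes (−0.47) at the bottom, and the adrenal list (median −4.71) is left out.

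Metabolic lists differed in how many members were called. All 6 genes of gluconeogenesis and fructose use rose (median slope 0.79, beside 4.42% of all genes), and edgeR called all 6 without replicate 9, without replicates 2 and 11 and without all 3. The Spearman test called 4 of the 6, and not Pck1 (rho = 0.78, exact adjusted p = 0.0699) or G6pc. Pck1, which makes phosphoenolpyruvate from oxaloacetate (chr2:173153048-173159273), had 125.6 CPM in its lowest kidney, a median of 545.0 and 1754 in its highest (1.36 ± 0.20, edgeR adjusted p = 0.0011). 3 of the 4 kidneys at the lower end had 125.6 to 203.0 CPM, and replicate 7 stood well above the rest. Its slope was 1.34 and 1.47 within the first and the second numbering block and −0.24 within the third. Without the second block Pck1 lost its call (slope 1.03, edgeR adjusted p = 0.23). Fbp1, which follows Pck1 in the pathway, had 104.2, 253.8 and 391.1 CPM (0.77 ± 0.08). Of 12 glycolysis genes none rose and 1 fell, beside 2.16% of all genes that fell: Pkm, the pyruvate kinase of most tissues (408.3 to 747.8 CPM, slope −0.28 ± 0.08, edgeR adjusted p = 0.0434). Pkm lost its call when any 1 of 9 kidneys was left out, without replicates 2 and 11 (edgeR adjusted p = 0.128) and in the Spearman test (exact adjusted p = 0.0503), and it overlaps another gene on its own strand. 11 of the 12 glycolysis genes had slopes below 0 (median −0.11), and 5 had an unadjusted p under 0.05, beside 22.0% of all genes. Gapdh stayed between 798.3 and 1094 CPM (−0.03 ± 0.07).

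Of 14 fatty acid oxidation genes 7 rose, beside 4.42% of all genes, and all 14 had slopes above 0 (median 0.24). The peroxisomal enzyme Ehhadh (31.5 to 183.4 CPM, slope 0.95 ± 0.12, edgeR adjusted p = 0.000463) rose, as did Ppara, the nuclear receptor that controls it (0.64 ± 0.11). Acadm, the medium-chain dehydrogenase of mitochondria, also rose (0.48 ± 0.06). Cpt1a, which admits fatty acids to mitochondria, ranged from 232.9 to 409.6 CPM and did not pass (0.14 ± 0.09). By Spearman rank, 6 of the 14 passed. 9 of 14 passed without replicate 9 and 7 without replicates 2, 9 and 11. 4 passed without replicate 2, 3 without replicate 7 and 3 without replicates 2 and 11. Of 81 oxidative phosphorylation genes 6 rose (7.41%, near the 4.42% of all genes), 75 had slopes above 0 and the median was 0.11. Its mean in replicate 9 was 0.49 log2 units above the average kidney, although replicate 9 lay below the median of Slc34a1. By Spearman rank, 1 of the 81 passed. 17 of 81 rose without replicate 9, where 1087 genes rose in all. With the long-minus-short transcript measure as a covariate 56 of 81 did, where 1199 genes rose in all. Without replicate 1, 2, 3, 7 or 8, or without replicates 2 and 11, 1 of 81 did, without replicate 4 or 10 there were 3, and without replicates 2, 9 and 11 there were 5. Among the 6, Ndufs1, a subunit of complex I, had 121.5 to 200.3 CPM (0.31 ± 0.07, edgeR adjusted p = 0.0142, exact adjusted Spearman p = 0.0754).

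Of 12 nephron transcription factors 2 rose and 1 fell, beside 4.42% and 2.16% of all genes, against 3 and 2 without replicate 9, and 1 and 0 in edgeR without replicates 2 and 11 or without all 3. The Spearman test called 1, Hnf4a. Hnf4a had 159.3 CPM in its lowest kidney, a median of 266.2 and 399.9 in its highest (0.58 ± 0.08, edgeR adjusted p = 0.000825, rho = 0.93). It was at most 197.4 CPM in the first 4 kidneys of the order and at least 244.9 in the other 7. Pax8, an early nephron factor, fell by 0.17 on the log2 scale per doubling (SE 0.05, edgeR adjusted p = 0.0487), with 165.6 to 226.9 CPM, and lost its call when any 1 of 10 kidneys was left out and in the Spearman test. It also lost its call with the numbering block as a term (edgeR adjusted p = 0.0712).

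**Figure D3:**
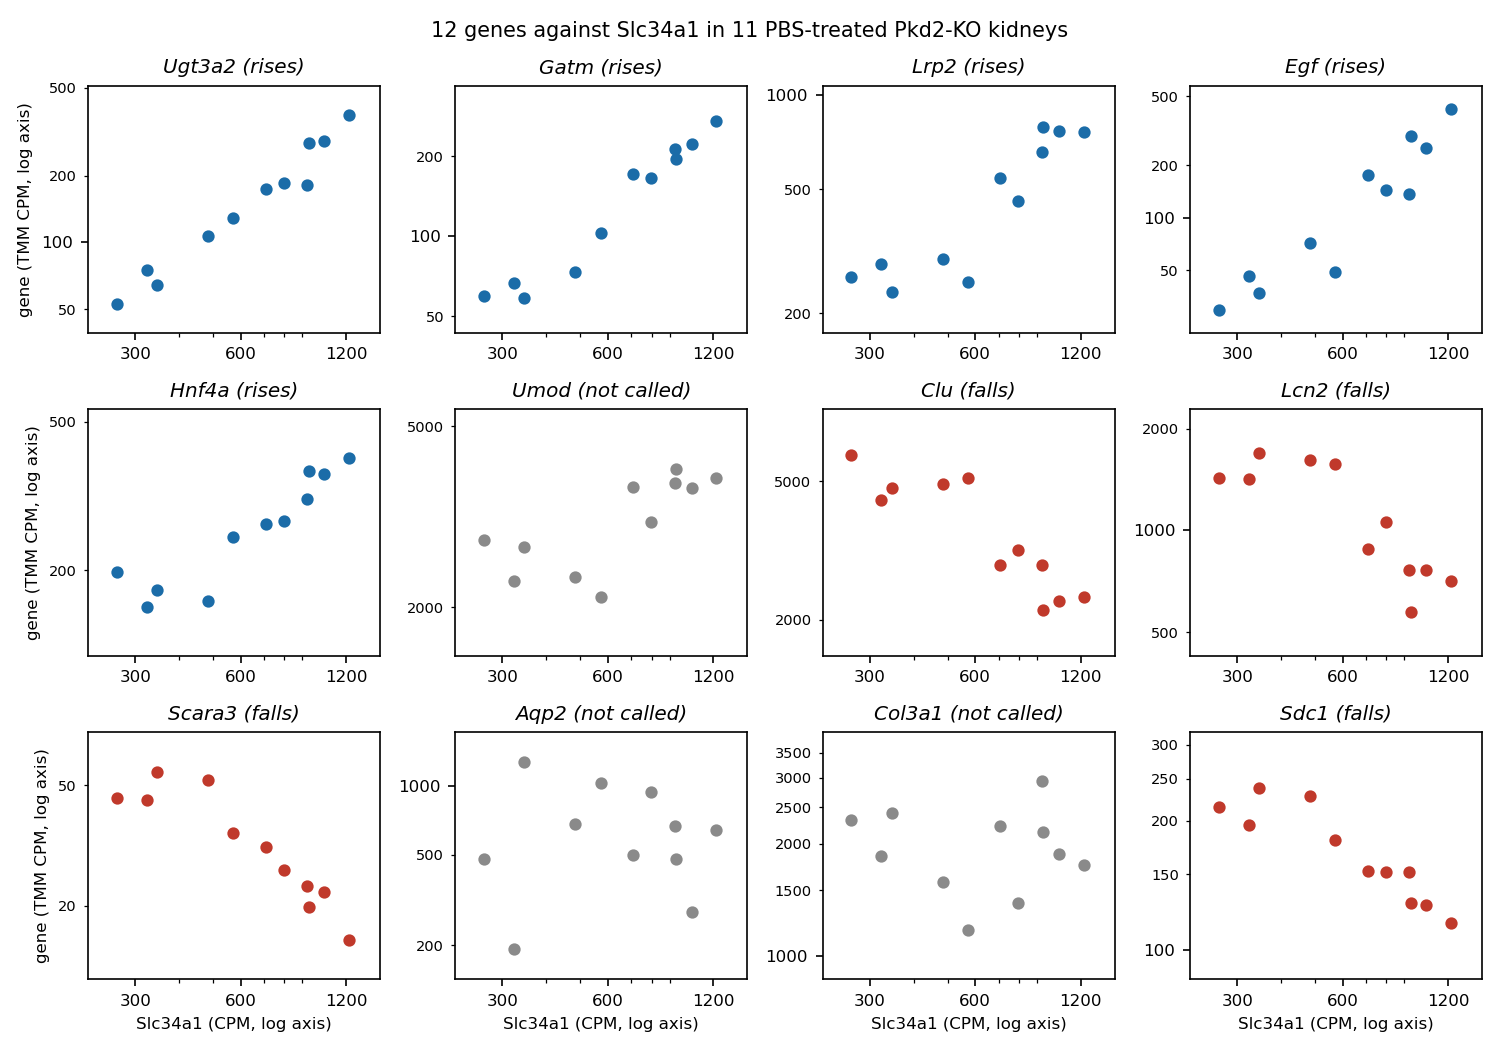
12 genes in TMM-scaled CPM (log axes) against Slc34a1 CPM, 1 point per PBS-treated Pkd2-KO kidney, where blue genes rose, red genes fell and grey genes were not called by edgeR. Ugt3a2 climbs from end to end, Lrp2 and Lcn2 change mostly between the fifth kidney (Slc34a1 571.5 CPM) and the sixth (708.0 CPM), and Aqp2 shows no order.

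Genes of tubular injury had slopes of the other sign. In edgeR 7 of 13 fell and none rose (median slope −0.45), beside the 2.16% of genes that fell overall. The Spearman test called 1 of them after adjustment, Clu, while the other 6 had rho from −0.80 to −0.83 and exact adjusted p from 0.0503 to 0.0608. Clu (clusterin, chr14:65968483-65981547), a secreted chaperone, had 2130 CPM in its lowest kidney, a median of 3182 and 5964 in its highest, and a slope of −0.65 ± 0.10 (edgeR adjusted p = 0.00198, rho = −0.86). Lcn2 (lipocalin-2, chr2:32384633-32388252) had 575.1, 1059 and 1690 CPM (−0.64 ± 0.12, edgeR adjusted p = 0.00741, rho = −0.83, exact adjusted p = 0.0503). Most of the change in both lay between the fifth and the sixth kidney. Along the order Lcn2 read 1432, 1420, 1690, 1616 and 1572 CPM in the first 5 kidneys and 884.1, 1059, 764.2, 575.1, 762.3 and 709.3 CPM in the next 6, and Clu was at least 4411 in the first 5 and at most 3182 in the rest. Krt7, Krt8, Krt18 and Krt19, keratins of simple and ductal epithelium, fell by 0.45 to 0.63 on the log2 scale, and Timp1, an inhibitor of matrix proteases, had a slope of −0.46 ± 0.11. 

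Other injury genes did not follow. Havcr1 (KIM-1), the proximal tubule's own injury marker, had 119.3 to 291.0 CPM and a slope of −0.20 ± 0.13 (edgeR adjusted p = 0.428). Spp1 (osteopontin) had 8265 to 16940 CPM (0.16 ± 0.11, edgeR adjusted p = 0.44), and Vcam1 (−0.05 ± 0.12) and Cd44 (−0.09 ± 0.11), surface proteins of injured tubules, did not pass. 8 of 13 fell without replicate 9, 3 without replicates 2 and 11 and 6 without all 3. Leaving out replicate 2 or 5 gave 3, leaving out replicate 7 or 8 gave 4, and a covariate for reads in no gene gave 3.

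Clu was among the 8 falling genes selected by p-value. Scara3, a scavenger receptor, had the clearest fall, from 55.5 CPM at its highest through a median of 31.3 to 15.4 CPM at its lowest (−0.77 ± 0.10, edgeR adjusted p = 0.000595, rho = −0.92), and its lowest value was in replicate 7, the kidney with most Slc34a1. Sdc1 (syndecan-1), a heparan sulfate proteoglycan, went from 237.6 to 115.4 CPM (−0.44 ± 0.07) and Pdpn (podoplanin) from 186.2 to 109.2 CPM (−0.37 ± 0.06). Anxa8, an annexin, had a slope of −0.71 ± 0.11 and Adra2a, an adrenergic receptor, −0.62 ± 0.10. Vat1, a vesicle membrane protein, fell within a narrow range, 154.4 to 292.8 CPM (−0.39 ± 0.06). All 8 kept their call in every edgeR fit that left out 1 kidney, and 7 of them passed the Spearman test.

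Few matrix and leukocyte genes were called along the order. None of 12 fibroblast, myofibroblast and matrix genes passed (1 fell without replicate 9), and Col3a1 (1173 to 2937 CPM, slope −0.03 ± 0.14) and Fn1 (690.8 to 1598 CPM, slope −0.12 ± 0.14) had their lowest values in replicate 9, the library with low long transcripts. Vim (vimentin) had a slope of −0.16 ± 0.05 (edgeR adjusted p = 0.0804) with rho = −0.84 (exact adjusted p = 0.0472). All 10 tested macrophage markers had slopes below 0 (median −0.37) and 1 fell, beside 2.16% of all genes: Cd68, a lysosomal protein (30.2 to 85.9 CPM, slope −0.51 ± 0.14, edgeR adjusted p = 0.0416). 6 of the 10 had an unadjusted p under 0.05, beside 22.0% of all genes. Lyz2 (320.4 to 1284 CPM, slope −0.46 ± 0.17) and C1qb (153.7 to 481.7 CPM, slope −0.44 ± 0.16) did not pass, and both were highest in replicate 9. Both passed in DESeq2 (adjusted p = 0.0429 and 0.0361). They also passed when kidneys were ordered by 12 other proximal tubule genes (edgeR adjusted p = 0.0456 and 0.0316). 5 of 10 fell without replicate 9, 2 without replicate 4 and 1 without replicates 2, 9 and 11. None passed in the Spearman test (Cd68, exact adjusted p = 0.0699), in edgeR without replicates 2 and 11, or without any 1 of replicates 1, 2, 3, 5, 6, 7, 8 and 11. Cd68 also lost its call with the numbering block as a term (edgeR adjusted p = 0.055). None of 10 T, NK and B cell markers (median slope 0.02) and none of 5 neutrophil markers (median −0.26) passed. S100a9 was at 1.56 to 16.0 CPM.

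Markers of tissue next to the kidney were also measured. 1 adipocyte and 1 urothelial gene fell, beside 2.16% of all genes. Of 5 adipocyte genes Cidec, a lipid droplet protein, fell (17.2 to 46.5 CPM, slope −0.55 ± 0.13, edgeR adjusted p = 0.0202) and Adipoq had a slope of −0.47 ± 0.13 (edgeR adjusted p = 0.0523). Of 6 urothelial genes Krt5, a basal keratin, fell (9.34 to 30.8 CPM, slope −0.58 ± 0.15) and 4 had slopes below 0. Without replicate 9, 3 adipocyte and 2 urothelial genes fell. Krt5 lost its call without replicate 2, 3, 5, 7 or 8 and Cidec without replicate 3, 4 or 7, and neither passed without replicates 2 and 11, without replicates 2, 9 and 11 or in the Spearman test. The 5 adrenal genes had slopes from −3.47 to −5.05 that rested on replicates 2 and 11 and did not pass (edgeR adjusted p from 0.136 to 0.19). Of 7 red blood cell genes 1, Alas2, was tested, and it did not pass. The part of these tissues in the other results was not tested beyond the counts without replicates 2 and 11.

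**Figure D4:**
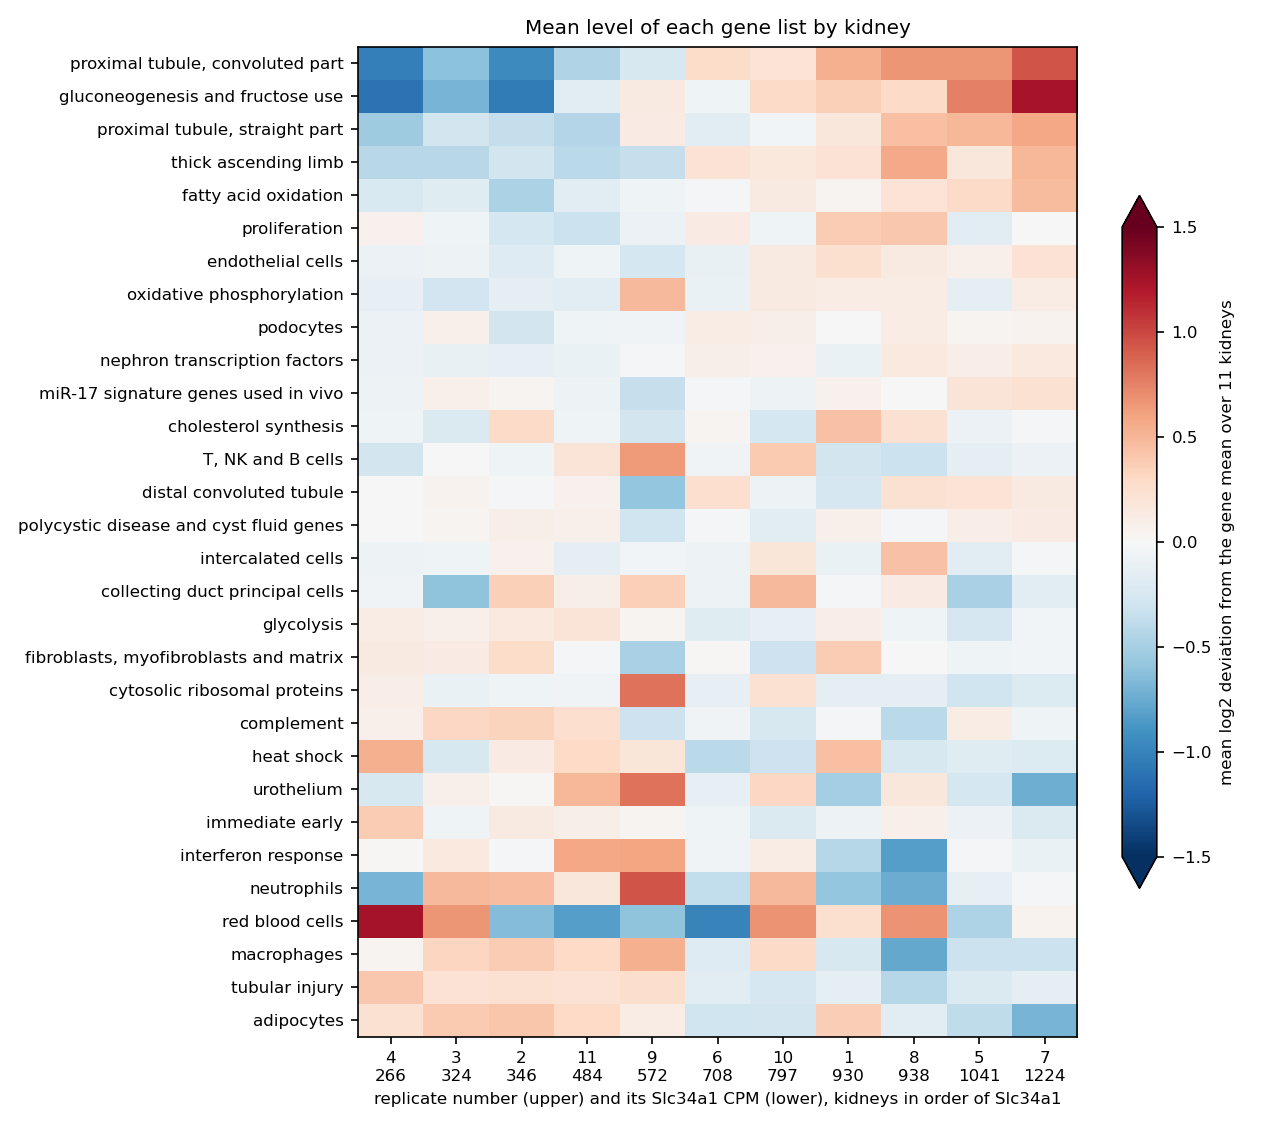
Mean log2 deviation of each gene list's tested members from their mean over the 11 PBS-treated kidneys (red high, blue low), with kidneys in order of Slc34a1 (replicate number above, CPM below) and lists in order of median slope. The convoluted proximal tubule list runs from −1.03 in replicate 4 to 0.95 in replicate 7, tubular injury from 0.41 to −0.13, and the column of replicate 9 stands out for ribosomal proteins (0.81) and oxidative phosphorylation (0.49), with the adrenal list left out.

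Cell division and disease genes were not called along the order. None of 14 proliferation genes passed, 12 had slopes above 0 (median 0.17), and Mki67 ranged from 47.2 to 91.7 CPM (0.17 ± 0.10, edgeR adjusted p = 0.331). None of 8 polycystic disease and cyst fluid genes passed. Pkd2 (slope 0.21 ± 0.10, edgeR adjusted p = 0.231) had rho = 0.73 (exact adjusted p = 0.102). It passed without the third numbering block (edgeR adjusted p = 0.0336) and with the long-minus-short transcript measure as a covariate (0.029). Pkd1 had a slope of 0.00 ± 0.12, Pkhd1, whose promoter drives Cre here, −0.02 ± 0.12, and Myc −0.20 ± 0.07 (edgeR adjusted p = 0.995, 0.937 and 0.127). Of 10 genes the study used as a miR-17 signature in vivo 1 rose, beside 4.42% of all genes: Zfp367 (11.9 to 22.6 CPM, slope 0.38 ± 0.09, edgeR adjusted p = 0.0172), and it did not pass without replicate 7 or without replicates 2 and 11. The study had chosen these genes as direct miR-17 targets in cell lines.

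Single members were called in 3 of the remaining lists, beside 4.42% of all genes that rose and 2.16% that fell. 1 of 14 cholesterol synthesis genes rose (Hmgcs1, 0.52 ± 0.10), 1 of 7 complement genes fell (C4b, 58.3 to 276.2 CPM, slope −0.80 ± 0.14, edgeR adjusted p = 0.00474) and 1 of 11 immediate early genes fell (Junb, −0.23 ± 0.06, which lost its call when any 1 of 9 kidneys was left out). Junb was also lost without replicates 2 and 11 (edgeR adjusted p = 0.205), without all 3 libraries that stood apart (0.124) and in the Spearman test (exact adjusted p = 0.0699), and no other gene of its list was called there. With the numbering block as a term Junb did not pass either (edgeR adjusted p = 0.0948). Without replicate 9, 2 complement and 2 immediate early genes fell. None of 11 interferon response genes (median −0.23), 6 heat shock genes (median −0.16) or 79 cytosolic ribosomal protein genes passed. The ribosomal genes had 72 slopes below 0 and a median of −0.12, and their mean was highest in replicate 9, 0.81 log2 units above the average kidney.

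The same genes were then looked at in kidneys the order had not used. In the 11 RGLS4326-treated Pkd2-KO kidneys, ordered by their own Slc34a1 (798.3 to 1401 CPM, a 1.75-fold range), 895 of the 1024 called genes tested there had a slope of the same sign (87.4%), against 51.6% of all genes tested in both. Among genes that rose it was 613 of 689 (89.0%) and among genes that fell 282 of 335 (84.2%). Ugt3a2 had a slope of 0.94 ± 0.20 there, Lrp2 of 0.76 ± 0.14, Egf of 1.42 ± 0.32 and Scara3 of −0.79 ± 0.17, although none of the 4 passed there (edgeR adjusted p from 0.101 to 0.165). Slc4a4 (0.10 ± 0.23), Pdpn (−0.04 ± 0.32) and Krt5 (0.08 ± 0.43), all called in the PBS-treated kidneys, had slopes near 0 there. 9 genes of 15347 passed the adjusted threshold there (0.0586%), and 1075 had an unadjusted p under 0.05 (7.0%). Without the 2 RGLS4326 kidneys farthest from their median the share was 879 of 1023 (85.9%), beside 61.7% of all genes.

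In the 12 UNT kidneys, whose Slc34a1 ran from 3196 to 4945 CPM (1.55-fold), 378 of 1011 called genes had a slope of the same sign (37.4%), against 41.0% of all genes. edgeR called 0 of 15770 genes there (0.0%), with 1912 at an unadjusted p under 0.05 (12.1%). Whether slopes differed between the groups was not tested, and the range of Slc34a1 was narrower in both groups than in the PBS-treated kidneys.

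**Figure D5:**
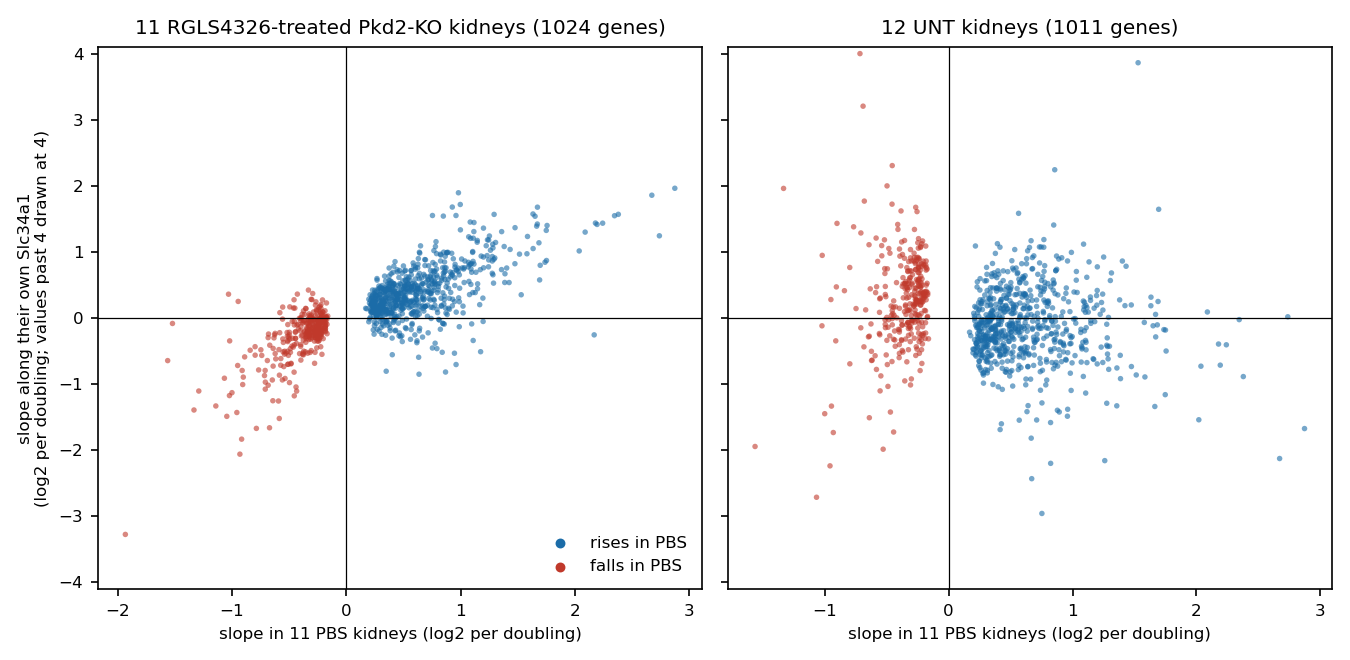
Slopes of the genes called in the 11 PBS-treated kidneys (x axis) against their slopes along Slc34a1 in the 11 RGLS4326-treated Pkd2-KO kidneys (left, 1024 genes) and in the 12 UNT kidneys (right, 1011 genes), each in log2 change per doubling, where blue genes rose and red genes fell in PBS-treated kidneys. Most points on the left lie in the quadrants of equal sign (87.4%) and fewer on the right (37.4%).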

How the data were processed

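Kidney poly(A) RNA was sequenced as paired 75 base reads from stranded libraries. Per the labels and methods, the authors trimmed reads, aligned them with STAR to GRCm38 (mm10) and counted them with HTSeq (0.6.1 in the submitters' processing notes). The deposited values are raw counts per gene symbol, 1 table per kidney, for 23509 genes. Annotation and strand setting are not given in the sources used here. Summary rows that name no gene were left out. In the 11 PBS libraries they held 5.18% to 9.00% of reads in no gene, 0.348% to 0.482% ambiguous and 14.8% to 19.4% without a unique alignment. Depth was 24226637 to 48891459 reads in genes, and intervals on it would cover counting error only.

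Slopes came from edgeR 4.0.16 in R 4.3.3 (filterByExpr with a minimum count of 10, TMM factors, glmQLFit, glmQLFTest) with log2 Slc34a1 CPM as a continuous covariate over the 11 PBS kidneys, and Benjamini-Hochberg adjustment over 15691 genes at 0.05. Slc34a1 was not tested. CPM printed for other genes are TMM-scaled over the tested genes. Pkd2 levels by group, Star and Slc34a1 are plain CPM over all genes. Spearman's rho had an exact two-sided permutation p, whose smallest possible value at n = 11 is 5.01e-08, and Pearson's r on log2(CPM + 1) a permutation test with 100000 resamples. Adjusted p-values of 7 technical measures were taken over the 7. The same fit was made separately in the RGLS4326 and UNT kidneys. The fit was tested on simulated data. The alternatives included DESeq2 1.42.0, a term for blocks in which the numbering of the deposited tables restarts (3, 4 and 4 PBS kidneys; what a block stands for is not given), sex, the share of reads in no gene, and leaving out kidneys. The length measure, the fits without blocks and the fits without replicates 2, 9 and 11 were chosen after seeing the data.

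Named genes are Slc34a1, Pkd2, Pdk2, Pkd1, Lcn2, Havcr1 and Ddx3y, the 8 rising and 8 falling genes with the smallest edgeR p (mean CPM of at least 5, exact Spearman p under 0.05, slope sign kept in all 11 fits without 1 kidney, no predicted gene and no exon overlap), and from each of 31 lists the 3 members with the highest mean CPM and the one with the smallest p. Other list members named in the report, and genes in the closing section, were chosen after their values were seen. The order, the members and the lists were chosen with earlier results of these data known. Each list is described by counts and a median with no set test. Nothing in the labels says that the kidneys came from separate litters, so p-values measure the spread between these samples. Gene positions and exon overlaps came from GENCODE M21 (GRCm38) by symbol. Promoter sequences are RefSeq's, matched by symbol. Some genes that the rule selects or the lists hold are counted but not reported by name here.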

Additional observations from a re-analysis of the deposited data

How the results depend on the processing

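Beside 693 rising and 339 falling genes, the fit called 667 and 412 without TMM, 678 and 310 without the filter on low counts, 783 and 518 with the rank of Slc34a1, 909 and 736 when ordered by 12 other proximal tubule genes, 602 and 288 with the numbering block as a term, 734 and 333 with sex, 588 and 151 with the no-gene read share, and 412 and 98 without the 2 kidneys farthest from the median. DESeq2 called 1029 and 764, which held 1029 of the 1032 edgeR calls. Leaving out 1 kidney gave 428 (without replicate 7) to 1087 (without replicate 9) rising and 89 to 734 falling genes. Among the settings chosen after seeing the data, 230 and 28 were called without the first numbering block, 242 and 23 without the second, 1003 and 719 without the third, 364 and 75 without replicates 2 and 11, 618 and 235 without replicates 2, 9 and 11, and 1199 and 797 with the long-minus-short transcript measure. The cause was not tested. Over all settings the slopes of named genes gave 3074 values with the same direction and side of the threshold, 184 that lost the call and 67 that gained it. The other 130, from 35 genes such as Pkd1, Aqp2 and Col3a1, were called in neither fit and changed sign. No slope called in either fit did. With 11 kidneys in 1 order, small slopes such as those of the oxidative phosphorylation genes passed or missed the threshold with single kidneys. No paired analysis was possible because the comparison lies within 1 group, along a continuous measure, and no kidney shares a replicate number with another in it.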

Other observations

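Whole gene families were also counted, chosen after their values were seen and described without a test of the family and over all 11 kidneys only. Of 23 Slc22 organic ion transporters 17 rose with Slc34a1 and none fell (median slope 0.96), beside 4.42% and 2.16% of all genes, and of 14 Ugt glucuronosyltransferases 8 rose and all 14 had slopes above 0 (median 0.70). Members of both families share near-identical sequence, so their reads may be divided unevenly. Exons of Ugt1a1, Ugt1a2, Ugt1a7c, Ugt1a9 and Ugt1a10, all among the 8, overlap another gene, so these calls may share reads. Ugt1a1 and Ugt1a9 had means of 2.48 and 1.19 CPM. In the Spearman test a rho of 0.8273 did not pass (exact adjusted p = 0.0503). The Ugt1a genes just named, Ugt2b34, Slc22a4, Slc22a26, Slc22a27 and Slc22a28 did not exceed it. Slc22a22, a prostanoid transporter, had 0.21 CPM in its lowest kidney and 13.8 in its highest, with a slope of 2.24 ± 0.24 (edgeR adjusted p = 0.000108). Cyp4a14 and Cyp4a10, fatty acid hydroxylases controlled by PPARA, rose by 1.75 ± 0.22 and 1.24 ± 0.17. Of the 14 Cyp4 genes 4 rose and 2 fell, beside 4.42% and 2.16% of all genes, and their median slope was 0.06. Dnase1, a secreted nuclease whose exons overlap another gene, had 6.05 CPM in the first kidney of the order and 84.6 in the last (2.09 ± 0.21).

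Claudins, which set what passes between tubule cells, went both ways: of 18 tested, 3 rose, 4 fell and 11 were not called, beside 4.42% and 2.16% of all genes. Cldn2, the leaky claudin of the proximal tubule (245.0 to 531.7 CPM, 0.38 ± 0.09), Cldn10 and Cldn11 rose, while Cldn4 (240.1 to 546.5 CPM, −0.51 ± 0.11), Cldn3, Cldn7 and Cldn23 fell. Cldn11, Cldn4 and Cldn23 did not pass the Spearman test (rho = 0.82, −0.79 and −0.77). 6 of 16 keratins and 4 of 11 annexins fell and none rose, beside 2.16% of all genes that fell. By Spearman rank none of the 6 keratins passed (rho from −0.78 to −0.83). Of the 4 annexins only Anxa8 did (rho = −0.90). Krt5, Krt7, Krt8, Krt18 and Krt19 were already counted in the lists above. Of 18 matrix metalloproteases 4 fell, Mmp14, Mmp15, Mmp3 and Mmp7, whereas none of 42 collagens passed (median slope −0.03). Mmp7 did not pass the Spearman test (rho = −0.73, exact adjusted p = 0.102). All 11 S100 genes had slopes below 0 and none passed.

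Gpnmb, Hp and Saa3 were picked for their slopes after these were seen, and none passed the Spearman test (exact adjusted p = 0.0699, 0.0858 and 0.0503). Gpnmb, a glycoprotein of lipid-laden macrophages, had 62.3 CPM in replicate 3 and 4.13 in replicate 8 (−1.33 ± 0.24, edgeR adjusted p = 0.0051), although 1 of 10 macrophage markers was called. Hp (haptoglobin), a plasma protein of the acute phase, ranged from 50.1 to 385.2 CPM (−1.02 ± 0.23, edgeR adjusted p = 0.0165, 0.0649 at most with 1 kidney left out), and Saa3, another acute phase protein, had a slope of −1.52 ± 0.28 at a mean of 2.67 CPM. In RGLS4326-treated kidneys the slope of Gpnmb was −1.39 ± 0.67 and that of Saa3 −0.08 ± 1.42, and whether these differ from the PBS-treated kidneys was not tested.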
